A study of Mus musculus with 12 samples.

Results

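Hypoxia sensing and hypoxia-inducible factor (HIF) target genes were examined as a set of 10 genes chosen by symbol, out of 22180 genes with a probe set of their own on the arrays. They were the HIF subunit genes Hif1a and Arnt, the oxygen-sensing hydroxylase genes Egln1, Egln2 and Egln3, the ubiquitin ligase subunit gene Vhl, and the target genes P4ha1, Bnip3, Kdm3a and Vegfa. A gene was read from the probe set that the platform annotation gives that symbol alone, taking the one with the highest mean over the 12 arrays. All 10 genes had such a probe set and passed the filter on dim genes, with means over the arrays of 5.99 to 7.88 log2 units. The filter lies at a mean of 4.72, the lowest 25% of probe sets.

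The arrays came from mouse acute myeloid leukemia driven by MLL-AF9 on a C57BL/6J background, with 3 arrays in each of 4 groups. Every recipient had been irradiated with 10 Gy and given 50000 bone marrow stem and progenitor cells expressing MLL-AF9, and the marrow was collected when leukemia began in that animal. The wild-type groups carried AMPKfl/fl cells and the knockout groups AMPKΔ/Δ cells, AMPK being the kinase that senses a low cellular energy state. Whole leukemia was all GFP+ cells. L-GMP, the leukemic granulocyte-macrophage progenitor, was the GFP+ fraction that was also lin-, c-kit+, CD16/32+ and CD34+, and 5000 cells were sorted for each array. The labels name neither the deleted AMPK subunit nor what deleted it, and do not say whether the arrays of a group came from separate animals, so p-values measure the spread between these arrays, which may be technical. The series asks what AMPK loss does to gene expression in this leukemia and in its initiating fraction.

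HIF is a pair of proteins, an oxygen-labile alpha subunit such as HIF-1 alpha and the stable partner ARNT. In oxygenated cells the EGLN enzymes hydroxylate prolines of the alpha subunit, VHL then binds it, and it is degraded. In low oxygen it escapes and, with ARNT, binds DNA at the hypoxia response element. HIF is thus set largely at the protein level, which arrays do not measure. Egln1 and Egln3 are HIF targets themselves and close a feedback loop. Bone marrow is a poorly oxygenated tissue, and HIF in blood stem cells and leukemia is known for steering glucose use.

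The core of the hypoxia response element is the letters ACGTG, where A may be replaced by G (GCGTG), and the sequences upstream of 4 of the 5 genes whose values moved together across the arrays are shown to let it be seen where these letters lie. The genes are P4ha1 at chr10:59323046-59323196 (+ strand), Bnip3 at chr7:138909507-138909756 (- strand), Egln1 at chr8:124949255-124949504 (- strand) and Egln3 at chr12:54203875-54204124 (- strand), from RefSeq on GRCm38.p6. Each reads 5′ to 3′ toward the gene and stops where the RefSeq record of the gene starts. Capitals mark these letters on the strand shown or on the other strand, where they read CACGT for the first motif and CACGC for the second. The stretch of the remaining gene, Kdm3a, is not shown and holds neither motif outside the gene record. Its GCGTG match lay inside the record, 27 bases before the start used for its window.
P4ha1: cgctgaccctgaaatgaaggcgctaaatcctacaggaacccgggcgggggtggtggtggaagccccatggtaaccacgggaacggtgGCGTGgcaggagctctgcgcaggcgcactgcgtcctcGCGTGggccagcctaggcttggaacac
Bnip3: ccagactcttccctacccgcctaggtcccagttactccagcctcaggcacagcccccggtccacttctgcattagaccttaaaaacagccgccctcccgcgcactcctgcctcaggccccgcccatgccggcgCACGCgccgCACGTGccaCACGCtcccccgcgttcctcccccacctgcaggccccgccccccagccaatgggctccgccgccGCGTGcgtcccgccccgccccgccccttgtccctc
Egln1: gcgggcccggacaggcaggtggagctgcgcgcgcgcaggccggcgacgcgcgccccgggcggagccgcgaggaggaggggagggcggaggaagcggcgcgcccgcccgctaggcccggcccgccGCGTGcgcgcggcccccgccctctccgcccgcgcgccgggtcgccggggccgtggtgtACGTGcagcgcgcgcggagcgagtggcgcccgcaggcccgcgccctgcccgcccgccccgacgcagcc
Egln3: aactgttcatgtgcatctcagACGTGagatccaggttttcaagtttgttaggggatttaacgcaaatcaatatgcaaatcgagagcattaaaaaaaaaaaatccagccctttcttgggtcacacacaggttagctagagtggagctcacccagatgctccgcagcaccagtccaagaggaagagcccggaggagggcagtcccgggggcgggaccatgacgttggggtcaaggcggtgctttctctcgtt

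Both motifs were searched on both strands in the 250 bases before each annotated transcript start, which gave 14 windows for the 10 genes. ACGTG was found for 7 genes, Hif1a, Egln1, Egln2, Egln3, P4ha1, Bnip3 and Vegfa, or 70% of the 10, against 22.3% of the 13755 tested genes with a window. GCGTG was found for 7 genes, Arnt, Egln1, Egln2, P4ha1, Bnip3, Kdm3a and Vegfa, against 42.4%. In Bnip3 the letters CACGTG, which read ACGTG on both strands and are also the E-box bound by MYC-type factors, lay 108 bases before the start. CACGTG was found for Bnip3 and Hif1a, 20% of the 10, against 8.77% of tested genes. In P4ha1 the 2 GCGTG matches lay 163 and 126 bases before the start used for the window, and its ACGTG match, on the other strand, lay 16 bases before that start, inside the gene record and so not shown. For Vegfa the matches lay before a second, internal start and none before the first. The Hif1a matches also lay inside the gene record, which starts at 73901324, in a window that begins at 73907617. These matches are a description of letters, and the genes were picked for being in this pathway.

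Prkaa1, the gene of the AMPK catalytic subunit alpha 1, was read beside the genotype labels. The labels do not name the deleted subunit, so this reading can check them only if Prkaa1 is the deleted gene. Prkaa1 measured 7.31, 6.83 and 6.87 log2 units on the knockout L-GMP arrays and 8.33, 7.99 and 8.12 on the wild-type ones, and 7.40, 7.45 and 6.95 against 8.69, 7.72 and 8.32 in whole leukemia. In each population all knockout values were lower than all wild-type values, as for 0.625% of all genes. The differences were -1.15 (SE 0.24, limma adjusted p = 0.622) in L-GMP and -0.98 (SE 0.24, limma adjusted p = 0.592) in whole leukemia. Of the gate genes, Cd34 was higher on every L-GMP array than on any whole leukemia array (9.45 to 10.05 against 8.35 to 9.38 in the wild type and 5.54 to 7.05 in the knockout), while Kit overlapped (7.14 to 9.40 against 6.47 to 8.04). Correlations between arrays lay between 0.902 and 0.986. Knockout whole leukemia array 2 stood apart, and without it the lowest was 0.943. It had a mean of 9.19 over the 8 matched genes of an erythroid marker list, against 5.05 to 5.83 on the other 11 arrays, and 11.27 over 12 neutrophil genes, against 6.26 to 9.86. In such bulk samples fewer cells of a type and less RNA per cell cannot be told apart.

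In both comparisons of knockout with wild type, P4ha1 had the lowest p among the 10 genes, and its knockout arrays all lay below its wild-type arrays. Vegfa had higher knockout means in both populations and Bnip3 lower ones, with overlapping arrays. Hif1a, Arnt, Egln2, Egln3 and Vhl showed knockout minus wild-type differences of at most 0.43 in size in whole leukemia and 0.14 in L-GMP. For Egln1 they were -0.24 (SE 0.50) in whole leukemia and 0.56 (SE 0.50) in L-GMP, with overlapping arrays. None of the 10 genes passed limma with Benjamini-Hochberg adjustment over the 17749 genes tested in L-GMP (background 0.00563% of genes called), in whole leukemia (0%) or in the mean of both populations (0.0338%). At an unadjusted p under 0.05 stood 2 of the 10 in L-GMP, P4ha1 and Vegfa (4.13% of all genes), 1 in whole leukemia, P4ha1 (5.97%), and 2 in the mean of both, again P4ha1 and Vegfa (7.72%). The arrays of the genotypes did not overlap for 1 of the 10 genes, P4ha1, in L-GMP (9.48% of all genes) and in whole leukemia (11.2%). The comparison averaged over both populations uses the same arrays as the other 2. The median difference of the 10 genes was 0.07 log2 in L-GMP against 0.02 over all genes, and -0.19 in whole leukemia against 0.0.

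**Figure D1:**
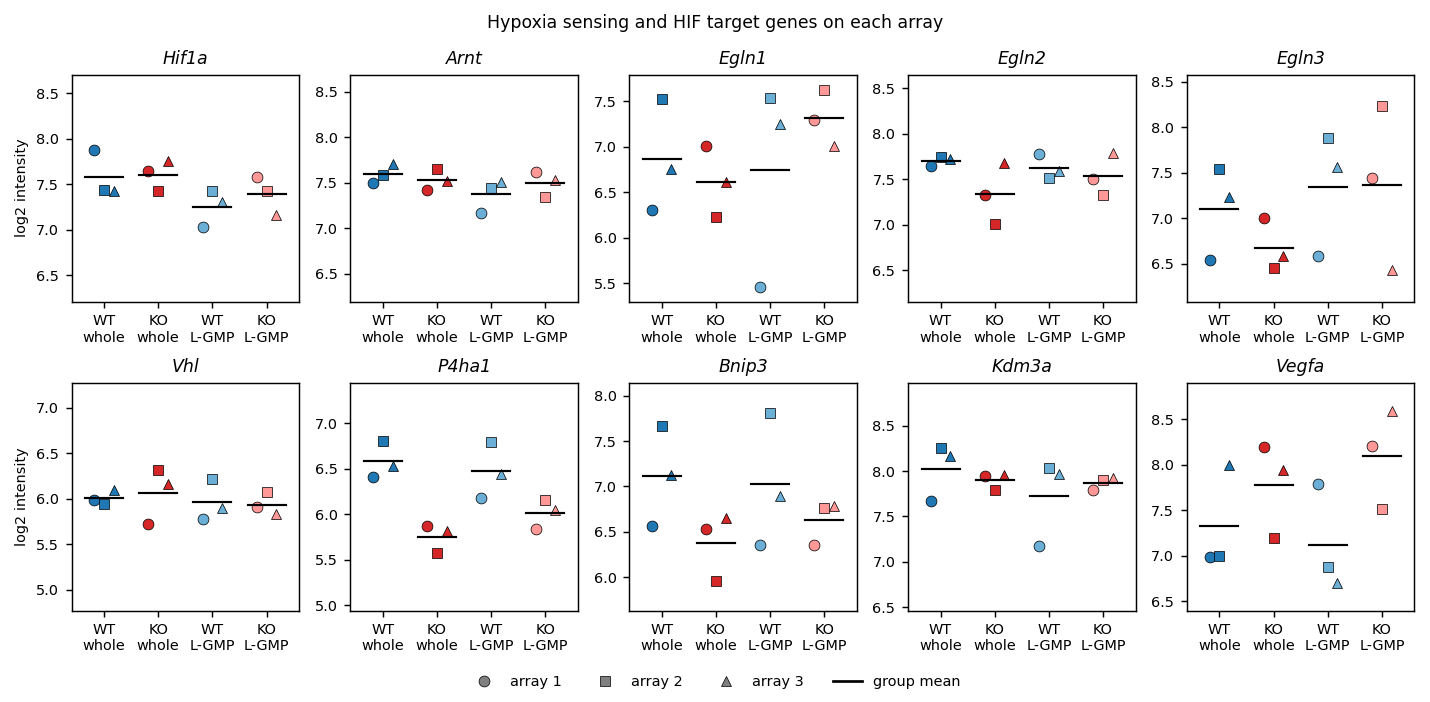
Log2 intensity of each of the 10 genes (vertical axes, all spanning the same number of log2 units) on the 12 arrays by group, with the marker shape giving the array number and the bar the mean of 3 arrays. P4ha1 is the gene whose knockout arrays (5.57 to 6.16) all lie below the wild-type arrays (6.18 to 6.81), while Egln1, Egln3, Bnip3 and Vegfa spread widely within groups.

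P4ha1 (probe set 17233536, chromosome 10, 59323197 to 59373304 on GRCm38.p6, as for all gene positions here) encodes the catalytic alpha 1 subunit of collagen prolyl 4-hydroxylase, an enzyme of the endoplasmic reticulum and a known HIF target. In whole leukemia it measured 6.41, 6.81 and 6.53 on wild-type arrays 1, 2 and 3 and 5.87, 5.57 and 5.82 on the knockout arrays. In L-GMP it measured 6.18, 6.79 and 6.44 in the wild type and 5.84, 6.16 and 6.05 in the knockout. The groups did not overlap in either population, with a wide gap in whole leukemia and a narrow one in L-GMP, where the highest knockout array (6.16) lay just under the lowest wild-type array (6.18). The difference was -0.83 log2 in whole leukemia (SE 0.17, 95% interval -1.20 to -0.45, 0.564-fold, limma adjusted p = 0.491) and -0.45 in L-GMP (SE 0.17, -0.83 to -0.08, 0.731-fold, limma adjusted p = 1). Averaged over both it was -0.64 (SE 0.12, -0.90 to -0.37, 0.642-fold, unadjusted p = 0.000282, limma adjusted p = 0.143), lower in 6 of 6 knockout arrays, 3 from each population, which the labels do not say come from different animals. Of all genes, 0.625% had knockout arrays below wild-type arrays in both populations. The 2 differences were not shown to differ from each other (interaction 0.37, SE 0.24, limma adjusted p = 1). Averaged over both populations, P4ha1 passed under 1 alternative, array weights (-0.68, limma adjusted p = 0.0444), and under the other 21 its adjusted p lay between 0.0669 and 0.371. Without wild-type L-GMP array 2 the L-GMP difference was -0.29.

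A list of monocyte and macrophage markers was also lower on average in the knockout, without overlap in whole leukemia and with overlap in L-GMP. The mean of 11 monocyte and macrophage markers was 8.94 to 9.49 on wild-type and 7.82 to 8.55 on knockout whole leukemia arrays, and 8.12 to 9.25 on wild-type and 7.77 to 8.29 on knockout L-GMP arrays, and none of the 11 was below the dim filter. Of the gate genes, Cd34 was also lower in knockout than in wild-type whole leukemia (-2.32, SE 0.37, limma adjusted p = 0.478), but differed by only -0.09 (SE 0.37) in L-GMP. Kit went the other way, with knockout minus wild type of 0.50 (SE 0.47) in whole leukemia and 1.08 (SE 0.47) in L-GMP. The part of the monocyte markers or of the gate genes in the P4ha1 result was not tested. Without knockout whole leukemia array 2, the array rich in erythroid and neutrophil transcripts, the whole leukemia difference of P4ha1 was -0.73.

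Bnip3 (probe set 17497421, chromosome 7, 138890836 to 138909506) encodes a protein of the outer mitochondrial membrane that starts mitophagy and is induced by HIF. It measured 6.57, 7.66 and 7.13 on the wild-type and 6.53, 5.96 and 6.65 on the knockout whole leukemia arrays, and 6.36, 7.81 and 6.90 on the wild-type and 6.36, 6.76 and 6.79 on the knockout L-GMP arrays. In each population the highest 2 values were wild-type arrays, while wild-type array 1 lay among the knockouts. The difference was -0.74 (SE 0.37, limma adjusted p = 0.829) in whole leukemia and -0.39 (SE 0.37, limma adjusted p = 1) in L-GMP. Leaving out wild-type array 2 brought the whole leukemia difference to -0.47. The 95% intervals were -1.56 to 0.08 and -1.21 to 0.43. The L-GMP difference rested on wild-type array 2, without which it was 0.01.

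Vegfa (probe set 17345293, chromosome 17, 46016993 to 46032377) encodes the secreted endothelial growth factor VEGF-A, a classical HIF target. It measured 6.98, 7.0 and 8.0 on the wild-type and 8.19, 7.19 and 7.94 on the knockout whole leukemia arrays, and 7.79, 6.87 and 6.70 on the wild-type and 8.2, 7.51 and 8.59 on the knockout L-GMP arrays. Wild-type L-GMP array 1 lay above knockout array 2, so the groups overlapped in L-GMP as they did in whole leukemia. The difference was 0.98 in L-GMP (SE 0.41, 95% interval 0.07 to 1.88, 1.97-fold, limma adjusted p = 1) and 0.45 in whole leukemia (SE 0.41, -0.46 to 1.35, limma adjusted p = 0.892). The whole leukemia value ran from 0.24 without knockout array 1 to 0.79 without wild-type array 3. Averaged over both it was 0.71 (SE 0.29, 1.64-fold, limma adjusted p = 0.604). Vegfa and P4ha1, both HIF targets, thus had mean differences of opposite sign, a contrast between them that was not tested.

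Kdm3a (probe set 17467624, chromosome 6, 71588970 to 71632990) encodes a HIF-induced demethylase of histone H3. Its values were 7.67, 8.25 and 8.16 on wild-type and 7.94, 7.79 and 7.96 on knockout whole leukemia arrays, and 7.18, 8.03 and 7.97 on wild-type and 7.79, 7.90 and 7.92 on knockout L-GMP arrays. The knockout arrays lay inside the wild-type range in both populations. The differences were -0.13 (SE 0.22) and 0.14 (SE 0.22), at limma adjusted p = 0.955 and 1.

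**Figure D2:**
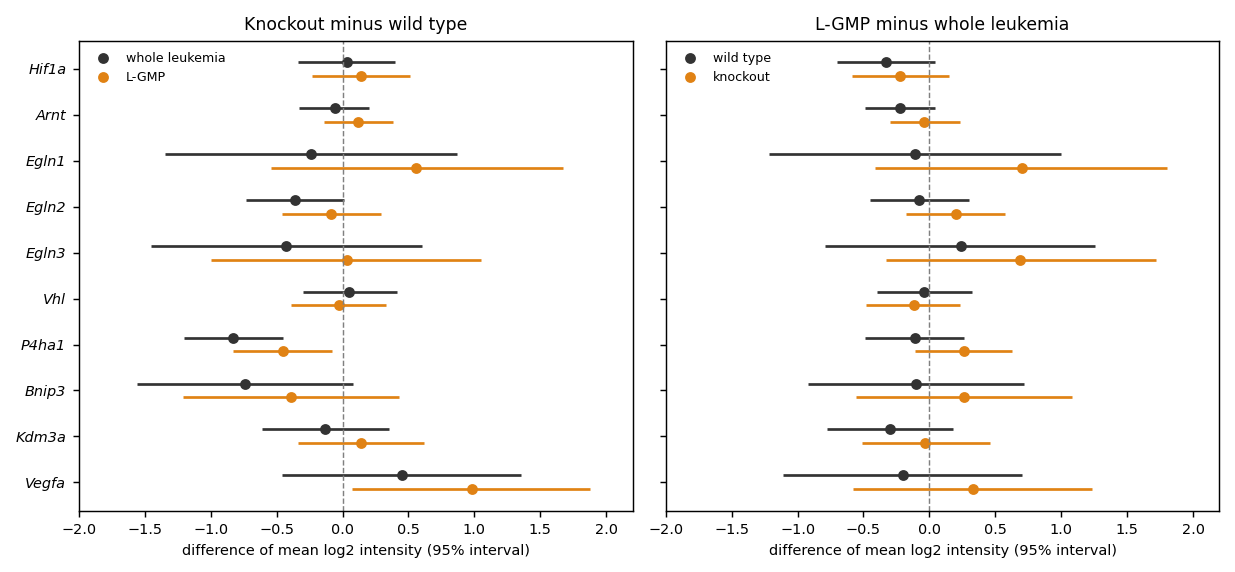
Differences of mean log2 intensity with 95% intervals from limma for knockout minus wild type (left) and L-GMP minus whole leukemia (right), with 1 row per gene and a colour for each population or genotype. The P4ha1 intervals for genotype (-1.20 to -0.45 and -0.83 to -0.08) and the Vegfa interval in L-GMP (0.07 to 1.88) exclude 0 before adjustment over genes, and none of the intervals for population does.

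Of the HIF subunits, Hif1a (probe set 17276328, chromosome 12, 73901324 to 73947554) encodes the oxygen-labile HIF-1 alpha. It measured 7.88, 7.43 and 7.42 on the wild-type and 7.64, 7.42 and 7.75 on the knockout whole leukemia arrays, and 7.03, 7.42 and 7.30 on the wild-type and 7.58, 7.42 and 7.16 on the knockout L-GMP arrays. The genotypes overlapped in both populations, and knockout minus wild type was 0.03 (SE 0.17, 95% interval -0.34 to 0.40) in whole leukemia and 0.14 (SE 0.17, -0.23 to 0.51) in L-GMP. Arnt (probe set 17400339, chromosome 3, 95434367 to 95497240), the stable partner of HIF-1 alpha, had the smallest spread within groups of the 10 genes, an SD of 0.14, and values from 7.17 to 7.71 over the 12 arrays. Its genotype differences were -0.06 (SE 0.12) and 0.12 (SE 0.12), at limma adjusted p = 0.96 and 1.

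The 3 hydroxylase genes differed in how much they varied. Egln1 (probe set 17514135, chromosome 8, 124908587 to 124949254), the main oxygen sensor that sets HIF-1 alpha turnover, measured 6.30, 7.53 and 6.76 on the wild-type and 7.01, 6.23 and 6.61 on the knockout whole leukemia arrays, and 5.46, 7.54 and 7.25 on the wild-type and 7.30, 7.63 and 7.01 on the knockout L-GMP arrays. Wild-type L-GMP array 1 was the lowest of all, and the range over the 12 arrays was 2.17 log2. Egln3 (probe set 17281084, chromosome 12, 54178981 to 54203874), the most strongly hypoxia-induced of the 3, measured 6.54, 7.54 and 7.23 on the wild-type and 7.0, 6.45 and 6.58 on the knockout whole leukemia arrays, and 6.58, 7.88 and 7.56 on the wild-type and 7.44, 8.23 and 6.43 on the knockout L-GMP arrays. Knockout L-GMP held both the highest and the lowest array of Egln3. Genotype differences were -0.24 (SE 0.50) and 0.56 (SE 0.50) for Egln1 and -0.43 (SE 0.46) and 0.03 (SE 0.46) for Egln3, in whole leukemia and L-GMP in turn, at limma adjusted p = 0.961, 1, 0.913 and 1. The signs depended on single arrays, other than that of Egln3 in whole leukemia (-0.71 to -0.21). Egln1 had -0.08 in L-GMP without wild-type array 1 and 0.09 in whole leukemia without wild-type array 2, and Egln3 in L-GMP ran from -0.40 without knockout array 2 to 0.50 without knockout array 3.

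Egln2 (probe set 17488122, chromosome 7, 27158658 to 27166802), the third of these hydroxylases, ran from 7.01 to 7.79 over the 12 arrays. On the knockout whole leukemia arrays it measured 7.33, 7.01 and 7.68 against 7.64, 7.74 and 7.72 in the wild type, overlapping through knockout array 3. The difference there was -0.36 (SE 0.17, 95% interval -0.73 to 0.01, limma adjusted p = 0.829), and in L-GMP it was -0.09 (SE 0.17, limma adjusted p = 1). Vhl (probe set 17461798, chromosome 6, 113623994 to 113631634), which encodes the substrate-binding part of the ubiquitin ligase for hydroxylated HIF alpha, lay between 5.72 and 6.32 over the 12 arrays, with genotype differences of 0.05 (SE 0.16) and -0.03 (SE 0.16). For Hif1a, Arnt, Egln2, Vhl and Kdm3a every genotype interval lay within -0.73 and 0.62 log2.

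L-GMP and whole leukemia were then compared within each genotype, which asks whether the initiating fraction differs in this pathway. These comparisons use the same arrays as those of genotype. Hif1a had the lowest p in the wild type and in the mean of both genotypes, with lower values in L-GMP. None of the 10 genes passed limma with Benjamini-Hochberg adjustment in the wild type (0% of all genes called), in the knockout (0%) or in the mean (0%). At an unadjusted p under 0.05 stood 0 of the 10 in the wild type (2.5% of all genes), 0 in the knockout (7.39%) and 1, Hif1a, in the mean (7.52%). The median difference of the 10 was -0.11 in the wild type, with 9 of the 10 below 0 (51.2% of all genes), and 0.23 in the knockout, with 6 above 0 (52.4%). Over all genes the medians were 0.0 and 0.01.

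Hif1a was lower on every wild-type L-GMP array than on any wild-type whole leukemia array, by so little that the nearest 2 arrays both round to 7.42. It was the 1 gene of the 10 without overlap there, against 10.3% of all genes, and in the knockout 0 of the 10 lacked overlap, against 10.2%. The difference was -0.33 in the wild type (SE 0.17, 95% interval -0.70 to 0.04, limma adjusted p = 1) and -0.22 in the knockout (SE 0.17, -0.59 to 0.15, limma adjusted p = 0.769). Over both genotypes it was -0.27 (SE 0.12, -0.53 to -0.01, 0.828-fold, limma adjusted p = 0.661). Without wild-type whole leukemia array 1, the highest Hif1a array at 7.88, the difference was -0.17 in the wild type. The mean of 12 neutrophil markers was 6.26 to 8.33 on L-GMP and 7.38 to 9.86 on whole leukemia arrays in the wild type, and 7.14 to 7.87 and 8.48 to 11.27 in the knockout, and their part in the Hif1a result was not tested.

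The hydroxylase genes Egln1 and Egln3 had their largest population differences in the knockout, 0.70 (SE 0.50, 95% interval -0.41 to 1.80) and 0.69 (SE 0.46, -0.33 to 1.72), at limma adjusted p = 0.752 and 0.728. Among wild-type arrays the corresponding values were -0.11 (SE 0.50) and 0.24 (SE 0.46). The target genes P4ha1, Bnip3 and Vegfa had L-GMP minus whole leukemia differences of 0.26, 0.26 and 0.33 in the knockout and of -0.11, -0.10 and -0.20 in the wild type, all with intervals that hold 0. Whether the genotype difference itself differed between populations was tested as an interaction, in which 0 of the 10 genes passed (0% of all genes called) and 0 had an unadjusted p under 0.05 (2.06%). Its largest value was 0.80 for Egln1 (SE 0.71, -0.76 to 2.37), followed by 0.53 for Vegfa (SE 0.58, -0.75 to 1.81). Their order rested on single arrays: leaving out array 1 of the wild-type L-GMP gave 0.16 for Egln1 and 0.87 for Vegfa, and the lowest Vegfa value was 0.19, without array 3 of the wild-type whole leukemia.

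The 10 genes fell into quiet and variable ones within groups. The SD within groups was 0.69 log2 for Egln1, 0.64 for Egln3, 0.56 for Vegfa and 0.51 for Bnip3, larger than in 97.2%, 96.5%, 94.8% and 92.9% of the genes tested. It was 0.29 for Kdm3a, 0.22 for P4ha1 and Egln2, 0.21 for Hif1a and Vhl and 0.14 for Arnt.

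Much of that variation was shared. Among Egln1, Egln3, P4ha1, Bnip3 and Kdm3a, a group chosen after its values were seen and so described with no test, the deviations of the arrays from their group means correlated at 0.59 to 0.97 over the 12 arrays (10 pairs, median 0.82), against -0.51 to 0.97 for all 45 pairs of the 10 genes (median 0.14). The 2 target genes Bnip3 and P4ha1 were closest, with Pearson r = 0.97 and Spearman rho = 0.91, and r = 0.93 without the 2 most distant arrays. The 2 hydroxylase genes Egln1 and Egln3 had r = 0.82 and rho = 0.85, and 0.78 without those arrays. Within the 6 wild-type arrays the 10 correlations were 0.84 to 0.99, and within the 6 knockout arrays 0.03 to 0.99 with a median of 0.58. Same-numbered wild-type arrays of the 2 populations deviated alike (correlations over all genes of 0.36, 0.62 and 0.30). The 6 wild-type arrays may thus hold fewer than 6 independent points. The arrays share their RNA, amplification and scan across genes, and each group mean ties its 3 deviations together.

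Array by array, all 5 genes lay below their group mean on wild-type whole leukemia array 1 (mean deviation -0.44), wild-type L-GMP array 1 (-0.71) and knockout whole leukemia array 2 (-0.27). All 5 lay above it on wild-type whole leukemia array 2 (0.42), wild-type L-GMP array 2 (0.55), knockout whole leukemia array 1 (0.21) and knockout L-GMP array 2 (0.30). The remaining 5 arrays were mixed, between -0.20 and 0.16. Vegfa correlated with the 5 genes at -0.45 to -0.11 over the 12 arrays, at -0.64 to -0.37 within the 6 wild-type arrays and at -0.49 to 0.51 within the 6 knockout arrays, where 4 of the 5 values were above 0. Its highest correlation with any of the other 9 genes was with Egln2 (r = 0.68, rho = 0.73, and r = 0.73 without the 2 most distant arrays).

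**Figure D3:**
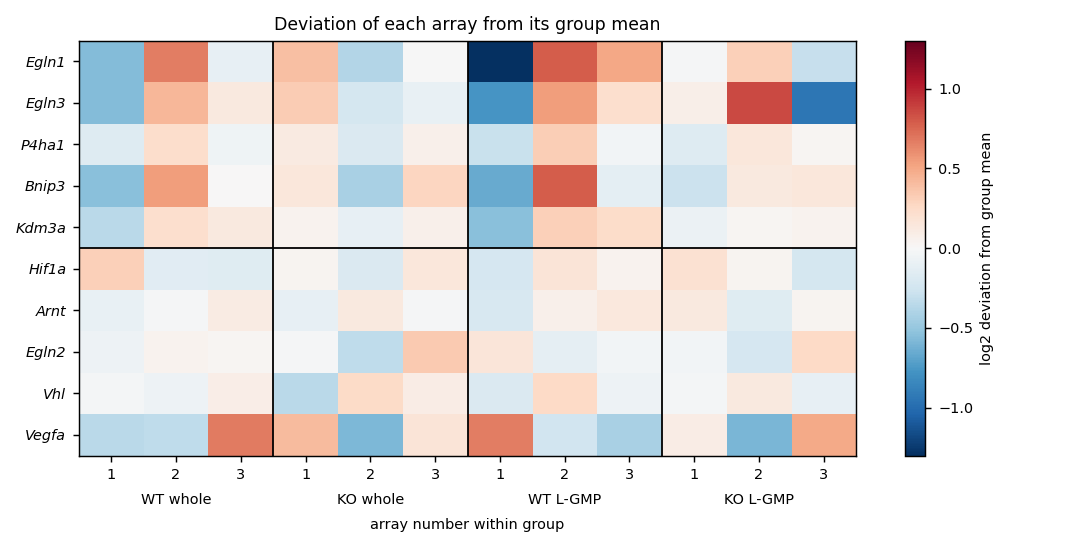
Deviation of each gene from its group mean (log2) on each of the 12 arrays. Egln1, Egln3, P4ha1, Bnip3 and Kdm3a all lie below 0 on wild-type L-GMP array 1 (mean -0.71) and all above 0 on wild-type L-GMP array 2 (mean 0.55).

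**Figure D4:**
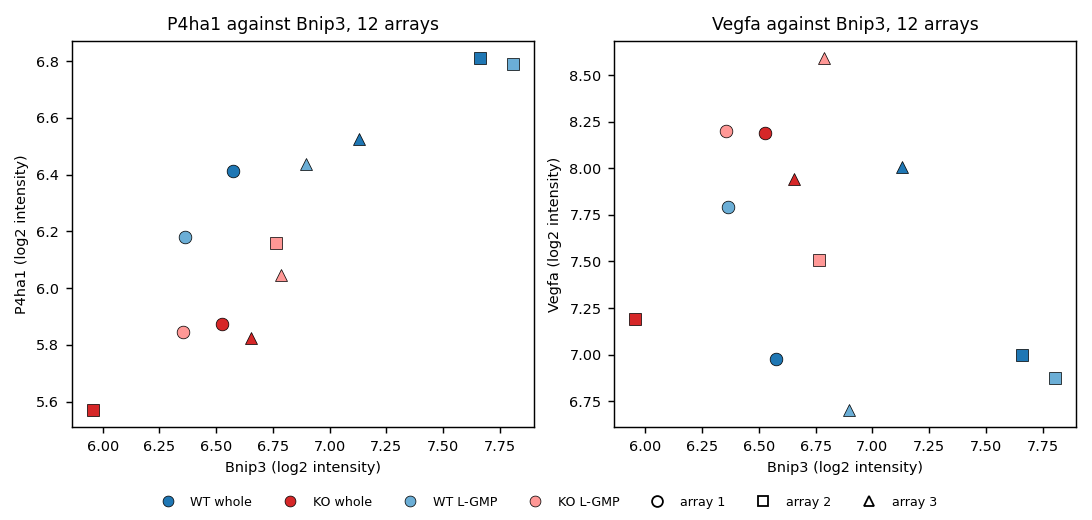
Log2 intensity of P4ha1 (left) and Vegfa (right) against that of Bnip3 on the 12 arrays, with colour for the group and marker shape for the array number. P4ha1 is higher where Bnip3 is higher (r = 0.88 over the values as they stand), which does not hold for Vegfa (r = -0.35).

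The genes whose pattern over the 12 arrays was most like that of each variable gene were looked up among 15459 named genes, as a description. For Bnip3 they were Trim14 (r = 0.98) and Mitd1 (0.97), for Egln3 Bccip (0.97) and Ktn1 (0.97), and for Egln1 Chtop (0.96) and Pdzd11 (0.94). For Vegfa they were Fbxo27 (0.96) and Scnn1a (0.92). For P4ha1 they were Ly86 and Ankle2, both at 0.94, which dropped to 0.81 and 0.87 once group means were removed. None of these is one of the 10 genes. Once group means were removed, Trim14 correlated with Bnip3 at 0.98 and Chtop with Egln1 at 0.98. No pair among the 10 genes exceeded 0.97, so correlations that high were not particular to them.

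A wider list of 71 genes of hypoxia sensing and HIF targets gave 59 genes tested, 61 having been matched to a probe set and 2 being dim. None of the 59 passed limma with Benjamini-Hochberg adjustment in any of the 7 comparisons. In the mean of both populations 38 of the 59 had lower knockout means and 21 higher ones, with a median of -0.10 against 0.01 over all genes, of which 47.4% were lower. At an unadjusted p under 0.05 stood 10 lower and 2 higher genes there, against 4.00% and 3.72% of all genes. In L-GMP it was 2 lower and 0 higher, against 1.83% and 2.30%, and in whole leukemia 4 lower and 2 higher, against 3.54% and 2.43%.

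By role, in the mean of both populations, the 16 glucose and lactate targets had 11 lower and 5 higher means, with 4 and 1 at an unadjusted p under 0.05. Over all genes 47.4% were lower, with 4% lower and 3.72% higher at that p. Tpi1, the glycolytic triosephosphate isomerase gene, had a difference of -0.62 (SE 0.19, limma adjusted p = 0.466), and Pfkl, a phosphofructokinase gene, -0.50 (SE 0.17, limma adjusted p = 0.539). Pfkfb3, whose product makes the activator of phosphofructokinase, had 0.35 (SE 0.12, limma adjusted p = 0.539). All 5 mitochondrial targets had lower means (median -0.15), as did 5 of 7 genes of oxygen sensing and HIF turnover (median -0.12). In each of these roles 1 gene had an unadjusted p under 0.05. Lower means were also found for 3 of 4 pH and iron targets (median -0.20) and 2 of 3 HIF subunits (median -0.07). The 9 stress and other targets were split, with 5 lower and 4 higher (median -0.01). Higher means were found for 4 of 7 secreted targets (median 0.05) and 2 of 3 HIF coactivators (median 0.06).

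Of the 3 collagen and matrix targets tested, P4ha2 had a difference over both populations of -0.03 (SE 0.05) and Lox of 0.03 (SE 0.08). Plod1, which encodes a lysyl hydroxylase of collagen, had the lowest p of the 3. It measured 6.58, 6.76 and 6.13 on the wild-type and 6.09, 5.60 and 5.99 on the knockout whole leukemia arrays, and 6.46, 6.61 and 6.38 on the wild-type and 6.26, 5.53 and 5.99 on the knockout L-GMP arrays. Its genotypes did not overlap in either population, with a narrow gap in whole leukemia (6.09 against 6.13). The difference over both was -0.58 (SE 0.15, limma adjusted p = 0.379). Plod1 was the 1 gene of the 59 that was lower in the knockout without overlap in both populations, against 0.625% of all genes. Tfrc, the transferrin receptor gene, was the 1 gene of the 59 with genotypes apart in both the other way, against 107 of the 17749 tested. In L-GMP it measured 7.89, 7.79 and 7.86 in the knockout and 7.77, 7.35 and 7.36 in the wild type. That gap was narrow, and the L-GMP difference was 0.35 (SE 0.46). In whole leukemia it measured 8.32, 10.18 and 7.87 in the knockout, where the wild-type arrays gave 7.22, 7.04 and 7.57. That is 1.52 higher on average (SE 0.46, limma adjusted p = 0.8). Its highest array, knockout array 2, was the one with erythroid marker mean 9.19, and the part of those cells in this result was not tested.

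**Figure D5:**
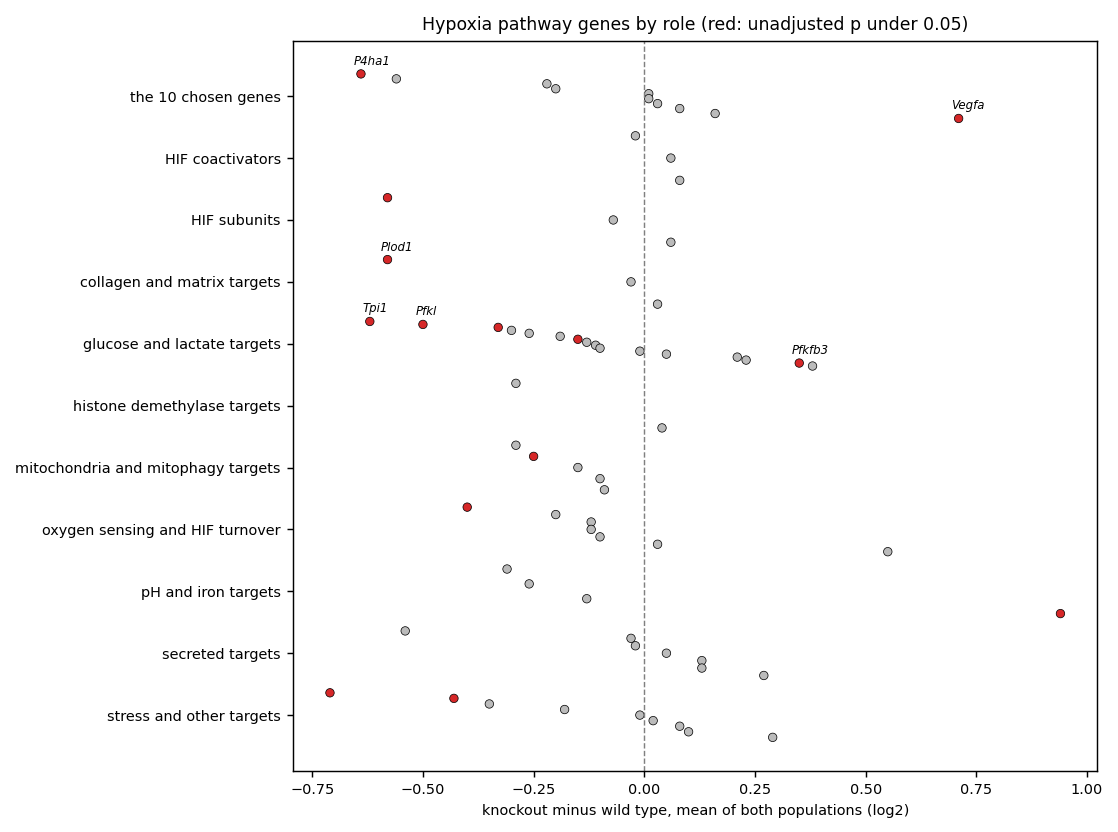
Knockout minus wild type, mean of both populations (log2, horizontal axis), for the 10 genes (top row) and for the 59 further pathway genes by role, with red for an unadjusted p under 0.05. P4ha1 (-0.64) and Vegfa (0.71) are the red points of the top row, and Plod1 (-0.58), Tpi1 (-0.62), Pfkl (-0.50) and Pfkfb3 (0.35) are named among the others.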

How the data were processed

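The authors deposited intensity values for 33794 probe sets on 12 arrays, linear in scale (17.96 to 9108.2, array medians 36.9 to 39.3). The labels' protocols give total RNA amplified and biotin-labelled with NuGEN kits. How they corrected background and normalized is not stated in the labels or file headers, so its effect on these values is unknown. The number of arrays limits the precision. Values were taken to log2. The platform annotation gave 23521 probe sets 1 gene symbol, 1814 several and 8459 none. Of 22180 genes, 4431 with means under 4.72 were left out and 17749 tested.

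limma 3.58.1 (R 4.3.3, statmod 1.5.0) fitted 1 mean per group over all 12 arrays (8 residual degrees of freedom), with Benjamini-Hochberg adjustment over all genes, called under 0.05. The fit was checked on simulated data. An exact test of 3 against 3 arrays cannot go below p = 0.1. Named were the 10 genes, Prkaa1, Kit and Cd34, the 4 pathway genes of lowest p in each comparison (some shown here), and for each gene with an SD of 0.3 or more its 2 most alike genes. Genes and lists were chosen with earlier results of these data known. Alternatives were probe set choice, dim filter, quantile normalization, an offset, variance model, array weights, compared groups alone, replicate blocks and left-out arrays.

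Marker lists of other cells were read as means over matched genes. B cell means lay between 5.20 and 5.62, T and NK cell means between 4.77 and 5.53, stromal and endothelial means between 5.34 and 5.47, eosinophil, basophil and mast cell means between 5.25 and 7.42, and G2/M means between 6.60 and 8.78.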

Additional observations from a re-analysis of the deposited data

How the results depend on the processing

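The number of the 10 genes called stayed at 0 under every alternative run in all 7 comparisons, except 1 (P4ha1) with array weights in the mean over both populations. P4ha1 kept its sign under all alternatives in the 3 genotype comparisons (-0.75 to -0.52 in the mean), as did Vegfa (0.59 to 0.92 in the mean). Several alternatives, such as the dim filter and the variance model, leave a difference as it is. Leaving out arrays could not turn the sign of P4ha1, whose knockout arrays all lay below the wild-type ones. Counts of all genes called were small and unstable, and the cause was not tested. In L-GMP 1 gene was called, against 2 with the mean of all probe sets or a trended robust variance, 4 with array weights, and 0 with no dim filter, the compared groups alone, the replicate block by number, or without both wild-type number 1 arrays, an alternative chosen after seeing the data. Leaving out 1 array gave 0 to 2 there and 0 to 1 in whole leukemia. For the mean of both populations 6 genes were called, against 3 with the mean of all probe sets or log2(intensity + 16), 51 with array weights, 2 with the replicate block by genotype and number, and 1 to 15 with 1 array left out (1 without wild-type whole leukemia array 1, 15 without wild-type L-GMP array 1). For population in the knockout 0 genes were called, against 1 with the lowest 50% left out or a trended robust variance, 2 with log2(intensity + 16) or the replicate block by genotype and number, and 0 to 40 with 1 array left out (40 without knockout whole leukemia array 1). For population over both genotypes it was 0, against 1 with a trended robust variance and 0 to 9 with 1 array left out (9 without knockout whole leukemia array 1).

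Same-numbered whole leukemia and L-GMP arrays deviated from their group means with correlations of 0.36, 0.62 and 0.30 in the wild type and 0.13, 0.09 and 0.43 in the knockout. Arrays of different number correlated at -0.37 to 0.03 in the wild type and -0.38 to 0.19 in the knockout. All 6 same-numbered values were above 0, but 1 of them lay under 0.1, and the numbers were not taken to pair the arrays. The wild-type arrays did deviate by number, so the 12 arrays may hold fewer than 12 independent samples. With the replicate block by number P4ha1 stayed at -0.64 in the mean (limma adjusted p = 0.159), and with the block by genotype and number its adjusted p was 0.236. The median SE of a difference between 2 groups was 0.15 log2, which bounds what 3 arrays per group can resolve.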

Other observations

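A second probe set of Hif1a, 17281911, not used above because it was dimmer, measured 5.96, 5.82 and 5.79 on the wild-type and 5.95, 6.06 and 6.58 on the knockout whole leukemia arrays, and 5.70, 5.90 and 5.84 on the wild-type and 5.99, 5.79 and 5.74 on the knockout L-GMP arrays. Its highest value was on knockout whole leukemia array 3, while the probe set used was highest on wild-type whole leukemia array 1. Unlike the probe set used, its wild-type L-GMP and whole leukemia arrays overlapped.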
